A study of Arabidopsis thaliana with 7 samples.

Results

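The plastid NADH dehydrogenase-like (NDH) complex sits in the thylakoid membrane, takes electrons from ferredoxin and passes them to plastoquinone, and in leaves works with photosystem I in cyclic electron flow. It is related to complex I of mitochondria. Its membrane arm and part of its stromal arm are encoded by the ndh genes of the plastid genome, and its other subunits, its assembly factors and the proteins that mature its mRNAs are encoded in the nucleus. Pollen plastids of Arabidopsis are not green, and plastid DNA is known to be lost as pollen matures in this species.

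The genes described here are the 10 plastid-encoded genes ndhA and ndhC to ndhK for which the array has a probe set annotated to exactly 1 gene. They are 10 of 69 plastid genes measured in this way and of 22746 probe sets in all. The probe set of ndhB was listed with both copies of that gene, which lies in the repeated part of the plastid genome, and was left out. The rule that picks the genes uses their names and annotation and no measured value, although the group was proposed with earlier results of these data known. The spores were uninucleate microspores (UNM, 2 arrays), bicellular pollen (BCP, 2 arrays), tricellular pollen (TCP, 2 arrays) and mature pollen grains (MPG, 1 array). All came from Arabidopsis thaliana of ecotype Ler-0 with no genetic modification, and each isolate was pooled from many plants. The study followed the transcriptome through microgametogenesis, and the stage-to-stage differences answer when each mRNA was most abundant.

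Signals are linear intensities in arbitrary units, scaled so that every array has a 2% trimmed mean of 100. Values under 20 are near background, were raised to 20 before log2 values were taken, and are printed here as deposited after scaling. A fold change against a stage with any such array is therefore a lower bound, written as at least N-fold. On the 7 arrays 9028 to 11446 probe sets reached a signal of 40, the minimum for testing on at least 1 array, and the number of arrays limits the precision. Because the MPG array has no replicate, its differences assume that it varies like the other stages. By microscopy the study found some spores of other stages in the UNM, BCP and TCP isolates, so a signal is an average over stages. Of these isolates UNM was the purest and BCP the least pure, with microspores as the largest admixture at BCP. The part of these microspores in the BCP signals was not tested. Fewer spores of a stage and less RNA per spore cannot be told apart in these data. For late pollen 3 of 5 markers were measured, with summed signals of 54.4 to 67.7 at UNM, 237 to 417 at BCP, 4549 to 5841 at TCP and 5411 at MPG. These are SWEET5, ANX1 and ANX2, which each rose from UNM to TCP. At MPG they diverged, with SWEET5 lower than at TCP (3918 and 2606 at TCP, 572 at MPG) and ANX1 and ANX2 higher. The microspore marker SWEET8 read 4494 and 6971 in UNM, 3692 and 6095 in BCP, 871 and 820 in TCP and 1894 in MPG, with overlapping ranges in UNM and BCP.

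All 10 ndh genes were well above the floor in microspores, with signals of 111 to 2487, and all 10 had fallen by the tricellular stage. Summed over the 10 genes, the UNM arrays read 7274 and 9171, the BCP arrays 3200 and 3275, the TCP arrays 842 and 1257 and the MPG array 619. Between UNM and TCP each gene fell, and the arrays of the stages did not overlap for any of them. Over the array 39.7% of the 14364 tested probe sets fell in this comparison, and 50.5% had TCP arrays below both UNM arrays. The median log2 change of the 10 genes was -3.07, against -0.38 over all tested probe sets. It counts ndhF, ndhH and ndhJ at their bound. The largest adjusted p of the 10 was 0.0015 (limma with Benjamini-Hochberg adjustment over all tested probe sets, as for every adjusted p below). The direction and the call held for each gene under every alternative processing tried, including leaving out any 1 of the replicated arrays. All 10 genes had passed the minimum signal of 40 because of their early level, and 7 of them still reached 40 on a TCP or MPG array. Only 5 did so on every array.

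**Figure D1:**
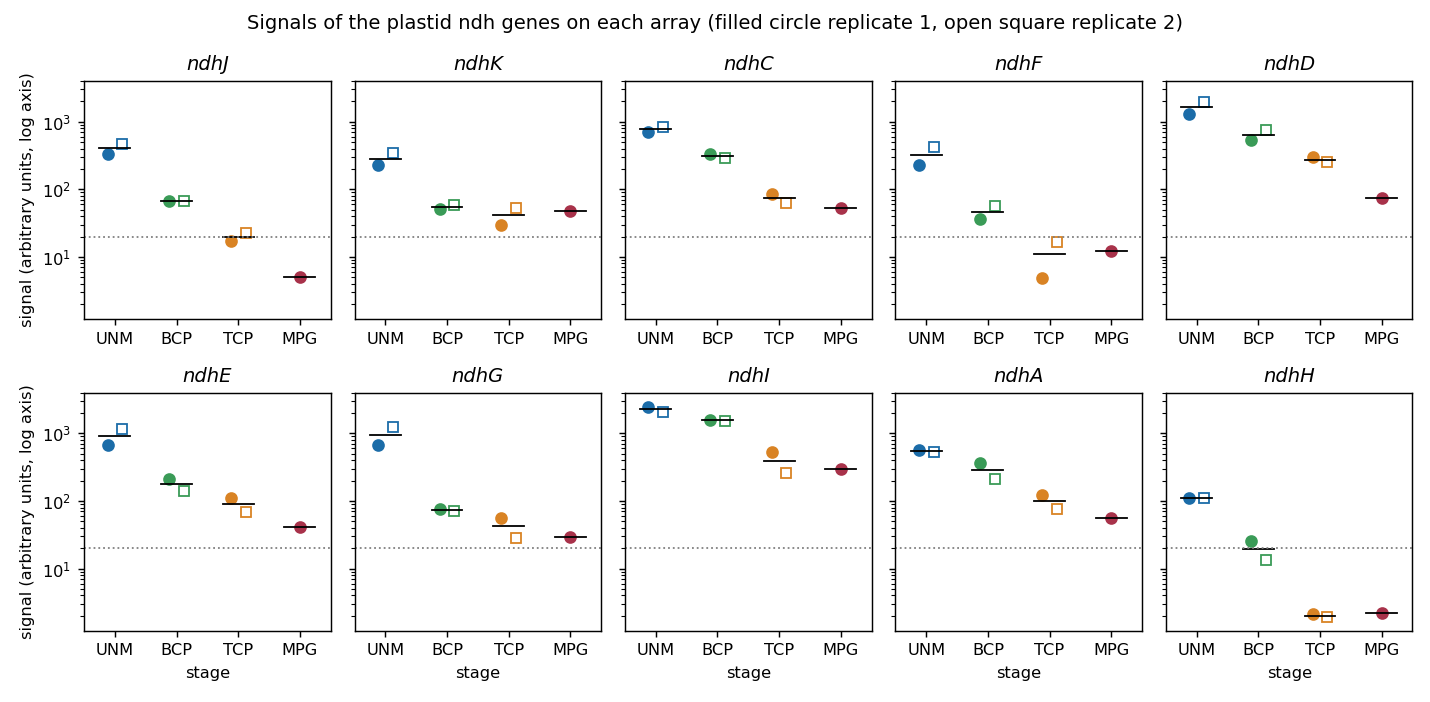
Signal of each ndh gene on each array (log axis, arbitrary units) by stage, in the order of the genes along the plastid genome. Filled circles are replicate 1, open squares replicate 2, black bars stage means, and the dotted line the floor of 20. In every panel both UNM arrays lie above all later arrays, and ndhJ, ndhF and ndhH end below the floor.

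The membrane arm of the complex is built from NdhA to NdhG. NdhG is a small subunit of this arm and the counterpart of mitochondrial Nad6. In microspores its mRNA read 662 and 1236, after which the BCP arrays gave 76.1 and 71.1, the TCP arrays 56.6 and 28.1 and the MPG array 29.7. The UNM replicates differed by a ratio of 1.87, yet both lay far above every later array. The log2 change from UNM to BCP was -3.62 (standard error 0.43, adjusted p = 0.016), a 12.3-fold fall and the largest of the 14364 tested probe sets. The change from UNM to TCP was -4.50 (standard error 0.43, adjusted p = 0.00032).

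NdhF is the large proton-pumping subunit at the distal end of the membrane arm, related to Nad5. Its signals were 228 and 416 at UNM, then 36.6 and 56.6 at BCP, then 4.94 and 16.8 at TCP and finally 12.2 at MPG. All 3 arrays after BCP were below the floor, so the second step is a bound, at least 2.28-fold (adjusted p = 0.031), and no change from TCP to MPG can be read. That call was lost with a floor of 40 (log2 change -0.25, adjusted p = 0.64), without the filter on low signals (0.14), with quantile normalization (0.056), with scaling to spiked controls (0.17), and without BCP replicate 2 (0.15) or either TCP replicate (0.16). From UNM to BCP the mRNA fell 6.78-fold (log2 change -2.76, standard error 0.35, adjusted p = 0.021), and from UNM to TCP at least 15.4-fold (adjusted p = 0.00025).

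NdhE, the counterpart of Nad4L, read 669 and 1148 in microspores, 215 and 140.5 in bicellular pollen, 112 and 69.3 in tricellular pollen and 40.5 in mature pollen. Its arrays stepped down without overlap from each stage to the next. The first step was 5.05-fold (log2 change -2.34, standard error 0.39, adjusted p = 0.046), and from UNM to TCP the fall was 9.95-fold (adjusted p = 0.00073). The call of the first step was lost with the replicate number as a block (adjusted p = 0.057), with a floor of 40 (0.086), without the filter on low signals (0.20) and with scaling to spiked controls (0.30).

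NdhD, the counterpart of Nad4, gave 1287 and 1981 at UNM, then 529.5 and 744 at BCP, then 297 and 254.5 at TCP and finally 75.4 at MPG. Its arrays did not overlap between stages at any of the 3 steps. From UNM to BCP the log2 change was -1.35 (95% interval -2.06 to -0.63) and did not pass (adjusted p = 0.094). From BCP to TCP it fell 2.28-fold (adjusted p = 0.015) and from TCP to MPG 3.65-fold (adjusted p = 0.03). The BCP to TCP call was lost without the filter (0.077), with scaling to spiked controls (0.098), and without BCP replicate 2 (0.081), TCP replicate 1 (0.079) or TCP replicate 2 (0.12).

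NdhC, the counterpart of Nad3, read 701 and 841 in microspores, 332 and 294 in bicellular pollen, 86.6 and 62.9 in tricellular pollen and 52.9 in mature pollen. Its first step missed the threshold narrowly (log2 change -1.30, standard error 0.23, adjusted p = 0.054), and it passed under quantile normalization (adjusted p = 0.047). From BCP to TCP it fell 4.23-fold (log2 change -2.08, standard error 0.23, adjusted p = 0.00068), a step of the same size as that of ndhI.

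NdhA, which anchors the stromal arm to the membrane and corresponds to Nad1, gave 566 and 528 at UNM, then 365.5 and 214 at BCP, then 124 and 74.9 at TCP and finally 56.5 at MPG. The UNM replicates were close to each other and the BCP replicates were not. The UNM to BCP difference did not pass (log2 change -0.97, 95% interval -1.84 to -0.10, adjusted p = 0.27). The BCP to TCP difference did, with a 2.9-fold fall (adjusted p = 0.012), although not without the filter (adjusted p = 0.077), BCP replicate 1 (0.061) or TCP replicate 2 (0.094).

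NdhH, NdhI, NdhJ and NdhK form the stromal part of the complex that is encoded in the plastid. NdhI carries iron-sulfur clusters in this part. Of the 10 mRNAs it kept the highest share of its microspore level at BCP, with signals of 2487 and 2095 in microspores, 1578 and 1540 in bicellular pollen, 527.5 and 258 in tricellular pollen and 297 in mature pollen. The BCP mean was 68.1% of the UNM mean, and the difference did not pass (log2 change -0.55, 95% interval -1.42 to 0.32, adjusted p = 0.53). From BCP to TCP it fell 4.23-fold (log2 change -2.08, standard error 0.35, adjusted p = 0.0037).

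NdhK carries the iron-sulfur cluster next to the quinone site. Its mRNA read 226 and 342 at UNM, then 51.1 and 58.2 at BCP, then 29.3 and 53.0 at TCP and finally 47.4 at MPG. It fell 5.1-fold from UNM to BCP (log2 change -2.35, standard error 0.35, adjusted p = 0.034). The TCP arrays overlapped both the BCP range and the MPG value, and neither later difference passed (adjusted p = 0.30 and 0.77).

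NdhJ, the counterpart of Nad9, read 334 and 473 in microspores, 67.1 and 67.9 in bicellular pollen, 17.2 and 22.4 in tricellular pollen and 5.04 in mature pollen. It fell 5.89-fold from UNM to BCP (log2 change -2.56, standard error 0.22, adjusted p = 0.007) and at least 3.19-fold from BCP to TCP (adjusted p = 0.0014). From UNM to TCP the fall was at least 18.8-fold (adjusted p = 4.3e-05). NdhH, the counterpart of Nad7, read 112 and 111 at UNM, then 25.3 and 13.5 at BCP, then 2.12 and 1.92 at TCP and finally 2.22 at MPG. Its UNM replicates were the closest of the 10 genes, and 4 of its arrays were below the floor, so only the first step could be measured. That step was at least 4.96-fold (adjusted p = 0.006).

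The genes that passed therefore differed between the steps. The sizes of the steps within a gene were not compared by a test. For ndhF, ndhH and ndhJ the BCP to TCP step is a bound. From UNM to BCP 6 of the 10 genes fell (ndhE, ndhF, ndhG, ndhH, ndhJ and ndhK) and 4 did not pass, while 0.494% of all tested probe sets fell. The range of the 10 log2 changes was -3.62 to -0.55 with a median of -2.32, against -0.05 over all tested probe sets. That median counts ndhH at its bound. All 10 had BCP arrays below both UNM arrays, which held for 24.1% of tested probe sets. The 71 probe sets that fell in this comparison over the whole array included these 6 genes and 28 other plastid genes. From BCP to TCP 6 fell (ndhA, ndhC, ndhD, ndhF, ndhI and ndhJ), with a median of -1.19 against -0.33 over all tested probe sets, where 37.5% of tested probe sets fell. For 9 of the 10 the TCP arrays lay below both BCP arrays, beside 49% of tested probe sets, and ndhK was the exception. Such counts and shares compare signals before the floor was set. The 9 include ndhH, for which both TCP arrays and BCP replicate 2 were under the floor. From TCP to MPG ndhD alone fell, with 7.43% of tested probe sets falling. The MPG array lay below both TCP arrays for 5 genes, beside 38.2% of tested probe sets, and ndhF and ndhH were at the floor on all 3 arrays. The 5 include ndhJ, which was under the floor on the MPG array and in TCP replicate 1 (log2 change -0.08, adjusted p = 0.93). From UNM to MPG 10 of 10 fell, with a median of -3.90 against -0.53 over all tested probe sets, and 40.4% of tested probe sets fell. The median counts ndhF, ndhH and ndhJ at their bounds. The MPG array lay below both UNM arrays for all 10, as for 58.1% of tested probe sets. The comparisons that start at UNM share the UNM arrays. The falls from UNM to MPG were 21.2-fold for ndhD, 21.6-fold for ndhE, 30.4-fold for ndhG, 14.5-fold for ndhC, 9.68-fold for ndhA, 7.69-fold for ndhI and 5.87-fold for ndhK, and at least 5.58-fold for ndhH, 15.4-fold for ndhF and 19.9-fold for ndhJ.

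**Figure D2:**
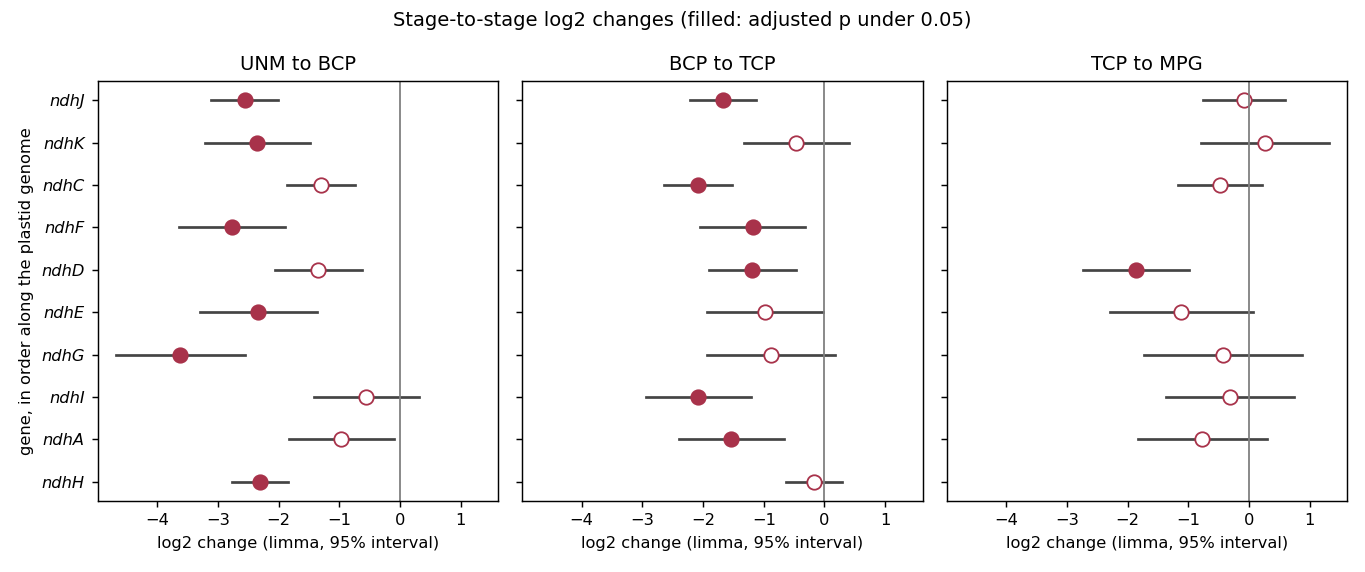
Log2 change of each ndh gene (x axis) between successive stages, with 95% intervals from limma and genes in their order along the plastid genome (y axis). Filled points passed an adjusted p of 0.05, and ndhF and ndhH are left out of TCP to MPG because all their arrays were at the floor. The first panel spans -3.62 for ndhG to -0.55 for ndhI, its neighbour.

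The calls from UNM to BCP rest on all 6 arrays of the first 3 stages. Without any 1 of them limma called 0 of the 10 genes and 0 probe sets over the array, with 1439 to 2238 probe sets at an unadjusted p under 0.05, while the median log2 change of the 10 genes stayed between -2.47 and -1.999. Of the 6 calls from UNM to BCP, 4 held with a floor of 40 (not ndhE and ndhF), 2 (ndhH and ndhJ) without the filter on low signals and 1 (ndhG) with scaling to spiked controls. From BCP to TCP 3 to 6 of the 10 genes were called when 1 array was left out, with 3 without TCP replicate 2, and 3 were called without the filter. The call of ndhD from TCP to MPG was lost without any 1 of these 6 arrays (adjusted p = 0.053 to 0.15), without the filter (0.10), with quantile normalization (0.062) and with scaling to spiked controls (1).

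In angiosperm plastids ndhH, ndhA, ndhI, ndhG, ndhE, psaC and ndhD are transcribed together, ndhC, ndhK and ndhJ form another transcription unit, and ndhF has its own promoter. The order of the TAIR10.1 gene table has the first group side by side, between ccsA and rps15. Fitted changes varied within a unit. The neighbours ndhG and ndhI lay at the extremes of the first step, with log2 changes of -3.12 and -4.12 in replicates 1 and 2 for ndhG and of -0.66 and -0.44 for ndhI. Their 95% intervals, -4.68 to -2.56 and -1.42 to 0.32, did not meet, though the difference between the genes was not tested. At BCP ndhI had covered 20.9% of its log2 fall from UNM to TCP, ndhG 80.4%, ndhE 70.4%, ndhD 53.1% and ndhA 38.6%. In the other unit ndhC had covered 38.4% and ndhK 83.4%. The same share cannot be read for ndhF, ndhH and ndhJ, which had TCP arrays raised to the floor. The shares of ndhG and ndhK rest in part on TCP arrays near the floor, at 28.1 and 29.3.

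The gene between ndhE and ndhD, psaC, encodes the iron-sulfur subunit that docks ferredoxin at photosystem I. It read 842 and 1223 in microspores, 111 and 135 in bicellular pollen, 76.4 and 59.4 in tricellular pollen and 39.5 in mature pollen. Its fall from UNM to BCP was 8.29-fold (adjusted p = 0.0068), in size between those of ndhE and ndhG. The outer neighbours ccsA, a cytochrome c maturation factor, and rps15, a ribosomal protein, fell 3.83-fold (adjusted p = 0.014) and 3.96-fold (0.041) in that step. The neighbour of ndhF, rpl32, did not pass there, at 1158 and 1621 in UNM and 768 and 1216 in BCP (adjusted p = 0.48).

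Over all 45 pairs of the 10 genes the Pearson correlation of log2 signals across the 7 arrays ran from 0.675 for ndhK and ndhI to 0.987 for ndhJ and ndhF, with a median of 0.917. These correlations share the arrays and the difference between stages and are given as a description. Among 8233 other named genes tested, the profile closest to the mean of the 10 was that of petG (r = 0.996), a small subunit of the cytochrome b6f complex. The next were psbC (0.993), ycf4 (0.993), psbF (0.992) and psbB (0.99), which encode photosystem II subunits and, in ycf4, a photosystem I assembly factor. All 5 are plastid genes, and the median r over the named genes was 0.448. Of the 50 closest profiles 21 were those of plastid genes, so genes outside the plastid genome shared this profile too. The gene petG read 394 and 576 at UNM, then 69.1 and 72.8 at BCP, then 38.1 and 23.9 at TCP and finally 17.4 at MPG.

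The rest of the plastid genome moved the same way. Of the other 59 plastid genes 28 fell from UNM to BCP and 58 from UNM to TCP, and 0 rose in either. Their median log2 changes were -1.51 and -2.99, beside -2.32 and -3.07 for the ndh genes. By function the UNM to BCP medians were -1.99 over 15 photosystem II genes, -1.78 over 13 genes of photosystem I and cytochrome b6f, -0.98 over 6 ATP synthase genes, -1.18 over 15 ribosomal protein genes and -1.03 over 4 RNA polymerase genes. In the same order the UNM to TCP medians were -3.465, -2.75, -2.48, -3.04 and -2.59, beside -3.07 for the ndh genes. From BCP to TCP they were -1.525, -1.09, -1.095, -2.005 and -1.45, beside -1.19 for the ndh genes. The ranges overlapped in every case, and whether the ndh genes differ from these groups was not tested.

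**Figure D3:**
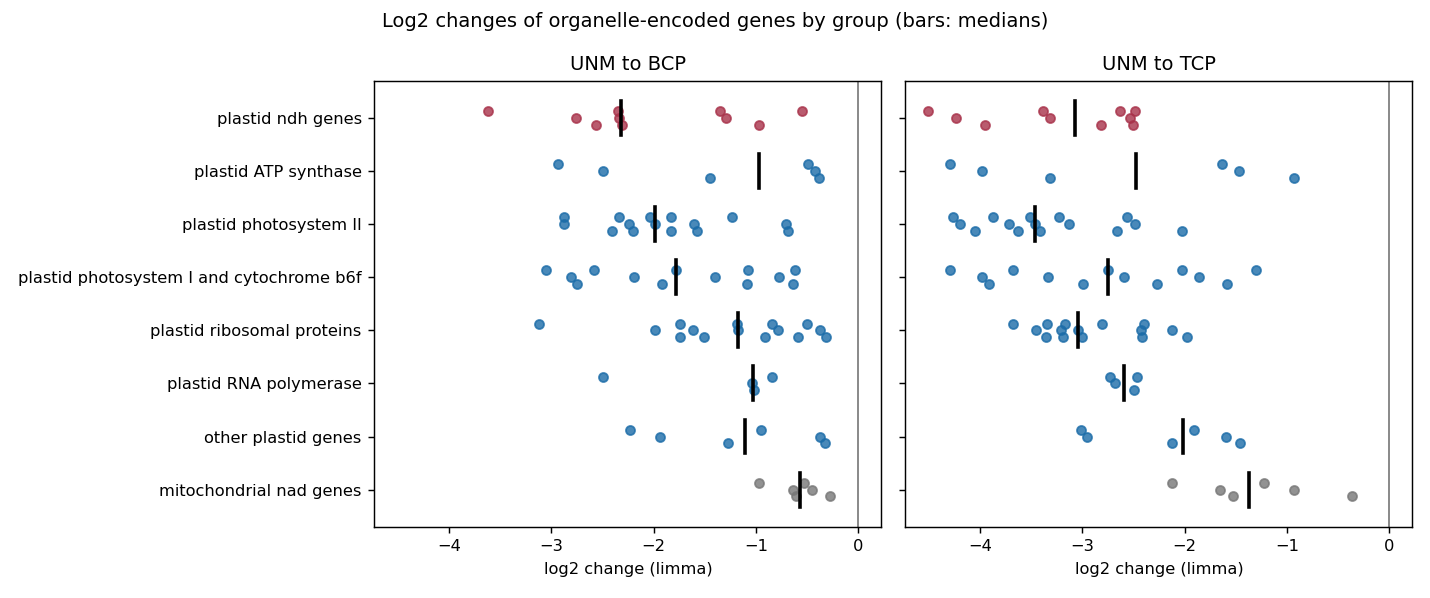
Log2 changes from UNM to BCP and from UNM to TCP (x axes) for single genes, grouped by function (y axis). Each point is a gene, black bars are medians, red marks the ndh genes, blue other plastid genes and grey the mitochondrial nad genes. All points of both panels lie below 0, and the ndh medians are -2.32 and -3.07.

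The nad genes of the mitochondrial genome encode the counterparts of the ndh products in complex I of the respiratory chain. Of 9 listed nad genes 8 were measured and 6 tested. From UNM to BCP limma called 0 of the 6, with log2 changes of -0.97 to -0.28 and 1, nad6, at an unadjusted p under 0.05, and from UNM to TCP 5 fell, with a median of -1.37. Between TCP and MPG 4 of the 6 fell, with a median of -2.03. From UNM to MPG all 6 fell, with a median of -3.15, beside -3.90 for the ndh genes, and 40.4% of tested probe sets fell. Each nad median is over all 6 tested genes, and nad4L and nad5 count at their bounds at MPG. The probe set for nad6, the counterpart of ndhG, may also match related sequences by its type. Its signals were 364 and 441 in microspores, 181 and 232 in bicellular pollen, 111.5 and 146 in tricellular pollen and 30.0 in mature pollen. It fell 4.25-fold after TCP (adjusted p = 0.016). For ndhG, at 56.6 and 28.1 in TCP, the floor of 20 leaves no room for a fall of this size, so the 2 genes cannot be compared in this step. For nad4, the counterpart of ndhD, the UNM arrays gave 516 and 788, the BCP arrays 507 and 546, the TCP arrays 207 and 237 and the MPG array 56.8, with a 3.89-fold fall after TCP (adjusted p = 0.02).

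The mitochondrial counterpart of NdhK is encoded in the nucleus by AT5G11770, and the mRNA of this gene went the other way. Of 3 listed nuclear homologues in mitochondrial complex I it was the only 1 measured. It read 778 and 603 at UNM, then 956 and 851 at BCP, then 1778 and 1522 at TCP and finally 1684 at MPG. The TCP arrays lay above all UNM and BCP arrays, a 2.4-fold rise from UNM (log2 change 1.26, standard error 0.21, adjusted p = 0.003), and NdhK mRNA fell 7.05-fold over the same interval (adjusted p = 0.00091). Over the array 2996 of the 14364 tested probe sets rose from UNM to TCP.

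Few listed nuclear genes of the NDH complex had a probe set annotated to exactly 1 gene, and those that did had low signals. Only 13513 of the 22746 probe sets are annotated in this way. A listed gene that was not measured may therefore still be on the array. Of 18 listed nuclear subunits 4 were measured by name (NdhL, NdhN, NdhS and NdhV), and over all arrays their signals ranged from 7.25 to 67.5. NdhN, a subunit of the stromal part, read 44.8 and 67.5 in microspores and gave 40.4 and 49.5 in bicellular pollen, 40.5 and 33.7 in tricellular pollen and 55.2 in mature pollen. The MPG value lay between the UNM arrays. Of the 2 tested subunits, NdhN and NdhV, limma called 0 in each of the 5 comparisons, and 0 reached an unadjusted p under 0.05. Of 12 assembly and RNA maturation factors 5 were measured, with signals of 2.52 to 46.2. The only tested one, OTP84, an RNA editing factor, read 35.6 and 46.2 at UNM and 5.94 at MPG and fell at least 2.03-fold (adjusted p = 0.024), with 1 MPG array. PGRL1B, of the other cyclic electron flow route, read 21.9 to 34.7 and was not tested. The only matched gene of the plastid transcription list, RPOTMP, had 1 of 2 arrays over 40 at UNM and at BCP and did not pass.

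**Figure D4:**
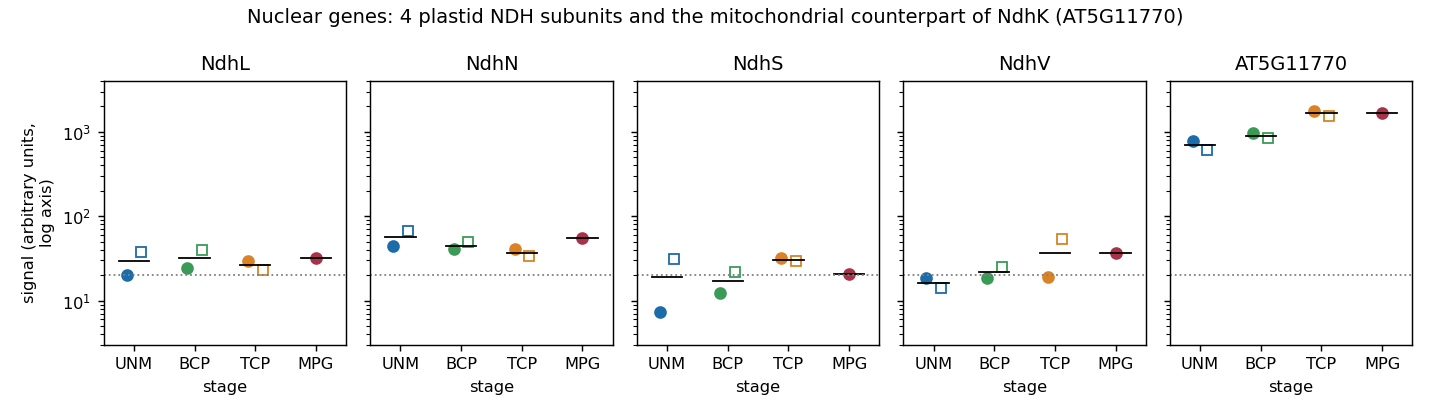
Signals on each array (log axis, arbitrary units) of the nuclear NDH subunit genes NdhL, NdhN, NdhS and NdhV and of AT5G11770, the mitochondrial counterpart of NdhK, by stage. Symbols, bars and the dotted floor of 20 are as in the plot of ndh signals. The 4 subunit genes stay at or below 67.5 on every array, and AT5G11770 rises from 603 to 778 at UNM to 1522 to 1778 at TCP.

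The measured markers of the tapetum and of meiocytes were low. For the tapetum 3 of 7 markers were measured, with a summed signal of 66.8 to 84.1 at UNM, 27.6 to 36.7 at BCP and 38.9 to 45.4 at TCP and a sum of 18.5 at MPG. EXL5 read 33.9 and 43.3 in microspores and fell at least 1.92-fold from UNM to TCP (adjusted p = 0.0074) and from UNM to MPG (0.017). In microspores A9 read 22.0 and 27.4 and AMS 10.9 and 13.4, and neither was tested. In TCP A9 was lower, at 2.12 and 12.6, and AMS was higher, at 24.4 and 22.6. For meiocytes 2 of 4 were measured, with sums of 82.0 to 92.0 in UNM, 71.3 to 90.3 in BCP, 36.0 to 38.4 in TCP and 61.2 in MPG. SDS, a meiotic cyclin, fell 2.05-fold from BCP to TCP (adjusted p = 0.023) and 2.32-fold from UNM to TCP (0.012). Of 33 nuclear photosynthesis genes, which mark green tissue, 4 were measured, and their summed signal was 164 to 182 in UNM, 261 to 292 in BCP, 157 to 172 in TCP and 101 in MPG. From UNM to BCP this sum went the opposite way to the ndh genes, and after BCP the same way. LHCB4.1, a photosystem II antenna protein, fell at least 3.24-fold from BCP to TCP (adjusted p = 0.0024). From UNM to TCP it fell at least 1.86-fold (0.026). RCA, Rubisco activase, read 77.2 and 90.5 in UNM, 125 and 173 in BCP, 103 and 77.0 in TCP and 44.0 in MPG. It fell 1.9-fold from UNM to MPG (0.043). LHCB4.3 read 55.2 and 31.1 in UNM and 40.4 and 73.4 in TCP. From UNM to TCP the fitted changes of RCA and LHCB4.3 were upward and did not pass (adjusted p = 0.77 and 0.44). The tapetum sum was thus highest at UNM, and the meiocyte and photosynthesis sums were lower at TCP than at BCP, in the direction of the ndh genes. Their part in the result was not tested.

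The ndh signals were higher in UNM replicate 2 than in replicate 1 for 7 of 10 genes, with a median log2 difference of 0.55, beside 0.37 for other plastid genes and 0.04 for all tested probe sets. At BCP 4 of 10 and at TCP 3 of 10 were higher in replicate 2, with medians of -0.07 and -0.34. The log2 ratio of 3' to 5' signal of control genes is used as a sign of RNA quality. For GAPDH it was 0.88, 0.63 and 1.06 in replicate 1 of UNM, BCP and TCP and 2.89, 2.76 and 3.19 in replicate 2. It was higher in replicate 2 at each of these stages, and the MPG array gave 1.21. For ubiquitin it was 2.36, 1.96 and 2.23 in replicate 1 of these stages and 2.96, 3.03 and 3.01 in replicate 2. The MPG array gave 1.91, so for both genes it lay nearer to the replicate 1 arrays. For actin the ratio moved with the stage instead. Both UNM arrays gave 1.79 and the BCP arrays 1.62 and 1.61, against -2.25 and -1.85 for the TCP arrays and -2.19 for the MPG array. The actin ratio was thus high at UNM and BCP and low at TCP and MPG, and the part of these ratios in the ndh results was not tested. The labelling reaction started from oligo(dT), and plastid mRNAs are known to carry few and short-lived poly(A) tails, so these signals follow the part of plastid RNA that was primed. Whether that part differed between stages was not tested.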

How the data were processed

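Total RNA of the isolated spores had been converted from an oligo(dT) primer to biotin-labelled cRNA and hybridized to Affymetrix ATH1 arrays by the authors, who deposited 1 linear intensity per probe set for each of the 7 arrays. The values had been scaled before deposit to a 2% trimmed mean of 100. No source used here gives the software that summarized them, and they carry no detection calls. The paper's dChip normalization was not repeated. The 64 control probe sets were set aside, the other 22746 were rescaled to a 2% trimmed mean of 100 (factors 1.006 to 1.008), a floor of 20 was set and log2 was taken. Testing was limited to the 14364 probe sets that reached 40 on any array and used limma 3.58.1 in R 4.3.3, with all 7 arrays in 1 fit with stage as the only factor (3 residual and 2.77 prior degrees of freedom). P-values were adjusted by Benjamini-Hochberg within each of 5 comparisons, with a threshold of 0.05, and the fit was checked on simulated arrays. Per the paper, replicates came from independently grown plants.

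Genes were named through the platform annotation and the TAIR10.1 gene table, where 13513 probe sets have 1 gene and 503 several. In every list a gene counts as measured only if a probe set with 1 gene carries it. The other listed genes may still be on the array. Of several probe sets for 1 gene the brightest was used. The genes, lists and tests were chosen with earlier results of these data known. The naming rule takes the 10 ndh genes, their measured neighbours in the plastid genome, list members that passed (up to 4 a list), and the 5 genes closest in profile. For the plastid lists and the nad genes, counts are given and only some of these members are named. NdhN, NdhV, NdhL, NdhS, PGRL1B, RPOTMP, A9, AMS and LHCB4.3 fall outside this rule and were named after their values were seen. Alternatives were a floor of 40, no filter, quantile normalization, scaling to 18 spiked control probe sets, the replicate number as a block, and leaving out each array of UNM, BCP and TCP.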

Additional observations from a re-analysis of the deposited data

How the results depend on the processing

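All 10 ndh genes stayed called as falling from UNM to TCP and from UNM to MPG under every alternative, and 0 rose in any comparison. With a floor of 40 the median log2 change of the 10 genes was -1.91 from UNM to BCP, -0.87 from BCP to TCP, -2.79 from UNM to TCP and -3.29 from UNM to MPG, since the higher floor shortens the falls of dim genes. Without the filter on low signals, when 22746 probe sets are tested, 2 ndh genes fell from UNM to BCP, 3 from BCP to TCP and 0 from TCP to MPG. Quantile normalization also gave 0 from TCP to MPG. It moved the median of all tested probe sets from BCP to TCP from -0.33 to 0.01, from UNM to TCP from -0.38 to 0.01 and from UNM to MPG from -0.53 to -0.15, with 3812 probe sets rising and 4264 falling from BCP to TCP against 2726 and 5391. With scaling to the spiked controls 1 ndh gene fell from UNM to BCP, with a median of -2.04, and 0 from TCP to MPG; the BCP to TCP median was -1.47. Over the array this scaling called 59 probe sets from UNM to BCP, 3886 from BCP to TCP, 2 from TCP to MPG, 4356 from UNM to TCP and 3205 from UNM to MPG, against 363, 8117, 1788, 8700 and 8688. The controls gave scaling factors of 1.42 and 0.752 for the UNM replicates and 1.9 and 0.681 for the BCP replicates.

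Leaving out 1 array gave 0 to 0 ndh genes falling from UNM to BCP (medians -2.47 to -1.999), 3 to 6 from BCP to TCP (-1.36 to -1.12), 0 to 0 from TCP to MPG (-0.77 to -0.16), and 10 to 10 from UNM to TCP (-3.38 to -2.84) and from UNM to MPG (-4.18 to -3.62). Probe sets called over the array were 0 to 0, 6295 to 7760, 0 to 951, 7050 to 8533 and 7442 to 8496 in the same order. With the replicate number as a block 5 ndh genes fell from UNM to BCP and 6 from BCP to TCP, and 501 probe sets were called from UNM to BCP. The replicate numbers are not stated to mark shared material, and the deviations of same-numbered arrays correlated at 0.435 (UNM and BCP), 0.219 (UNM and TCP) and 0.276 (BCP and TCP) across probe sets. From TCP to MPG 4 differences that had not passed changed sign: ndhJ with the block (0.032), and ndhK, ndhG and ndhI without TCP replicate 1 (ranges without 1 array -0.16 to 0.69, -0.93 to 0.079 and -0.83 to 0.20). The cause of the changes with each setting was not tested.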
